A study of Mus musculus with 12 samples.

Results

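The genes of cholesterol and fatty acid synthesis were followed in C57MG cells, a mouse mammary epithelial cell line, after treatment with Rspo2 and Wnt3a. The set held 35 genes: 18 enzymes of sterol synthesis and the sterol carrier gene *Stard4* (19 genes, the sterol branch), 11 genes of fatty acid synthesis (the fatty acid branch) and 5 genes of SREBP control. They were chosen by symbol among the array's probes, and each was represented by the probe with the highest mean log2 signal of those that carried its symbol. The gene name of the files gave 34 of them and the accession gave *Me1*; *Sc4mol* is the older name of *Msmo1*. The array carried 27962 gene names and 41174 distinct probes, of which 22750 were detected in at least 1 group, and all 35 genes were well above background on all 12 arrays.

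Cholesterol is built from acetyl-CoA through mevalonate, farnesyl diphosphate, squalene and lanosterol, and fatty acids are built from the same acetyl-CoA through malonyl-CoA. The transcription factors SREBP-2 (*Srebf2*) and SREBP-1 (*Srebf1*) drive the genes of the sterol and the fatty acid branch, respectively, with much overlap. When membrane sterol is low, Scap escorts them from the endoplasmic reticulum to the Golgi for cleavage, whereas Insig1 and Insig2 retain Scap when sterol is high. Mammary epithelium is known for making large amounts of fatty acids for milk.

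Monolayers received carrier protein (BSA), 100 ng/ml Rspo2, 100 ng/ml Wnt3a, or both proteins at 100 ng/ml each, for 24 h, and 3 monolayers of each kind gave 12 single-color arrays. No genotype, transgene or other agent distinguished the groups, which were all of 1 cell line. The arrays lay on 3 slides, each scanned once. All BSA arrays shared slide 1 with Rspo2 replicate 1, the other Rspo2 arrays shared slide 2 with replicates 1 and 2 of Wnt3a, and Wnt3a replicate 3 was on slide 3 together with the combination. No array of Wnt3a or the combination, and only 1 of 3 Rspo2 arrays, therefore shared a slide with BSA. The slides were linked through the Rspo2 and Wnt3a arrays, so that slide could be fitted as a term. Between 51.3% and 64.1% of probes were well above background on an array. Levels are given as log2 signal, meaning the log2 of the background-subtracted intensity over the 75th percentile of that array, so that a value of 1 lies 2-fold above that percentile; changes are differences of group means on this scale with their SE, 3 arrays a group, from a limma fit of all arrays, and p-values are adjusted over all detected probes.

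The label of the cells was set against marker genes. Of 9 luminal epithelial markers only *Krt8* was well above background on all 12 arrays, and *Cdh1*, *Cldn7* and *Esrp1* were so on none. *Krt14*, *Krt17*, *Trp63* and *Acta2*, of 6 basal or myoepithelial markers, and 6 of 7 mesenchymal markers (all but *Thy1*) were above background on every array. Of 6 adipocyte markers, *Fabp4* was above background on every array while *Plin1*, *Cfd*, *Lep* and *Cidec* were at background on all 12. The summed signal of the basal markers, over the 75th percentile of the array, was 133 to 140 in the BSA group, between 171 and 193 after Rspo2, between 185 and 206 after Wnt3a and 220.1 to 258 after both proteins. The brightest was *Acta2*, at a mean log2 signal of 6.96 with BSA against 3.35 for *Krt14*, so the sum mainly followed *Acta2*. With both proteins *Krt14* and *Acta2* changed by 1.24 and 0.78 and *Krt17* and *Trp63* by -0.35 and -0.40, each with an adjusted p under 0.05. *Krt5* changed by -0.84 with Rspo2 and -0.57 with Wnt3a (adjusted p = 0.021 and 0.041), where *Acta2* changed by 0.43 and 0.48. The summed signal of the adipocyte markers, of which only *Fabp4* was detected, ran from 0.519 to 0.605, 0.692 to 0.792, 0.514 to 0.588 and 0.302 to 0.390 in the same order. With both proteins 2 mesenchymal markers passed, *Col3a1* at -0.85 and *Pdgfrb* at -0.60. Only *Cd68* of 5 leukocyte and *Cdh5* of 4 endothelial markers were above background on every array. *Cdh5* changed by -0.41, -0.49 and -0.55 with Rspo2, Wnt3a and both (adjusted p = 0.012, 0.0013 and 0.00026). Among leukocyte markers only *Cd3e* passed against BSA, at -1.01 with Wnt3a (adjusted p = 0.040). Fewer cells of a type and less RNA per cell cannot be told apart in such samples, and the part of these shifts in the results below was not tested.

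The promoters of several members are shown first, because the regulators of sterol genes are known to act through sequence near the start site. RefSeq promoters of GRCm38.p6 (250 bases before to 50 after a gene's start) matched 28 of the 35 genes, with 37 start sites. Exact matches were counted on both strands to TCACNCCAC (a sterol regulatory element, bound by SREBPs), CCAAT (bound by NF-Y), GGGCGG (bound by Sp1) and TCAAAG (the core of the Tcf/Lef site, through which β-catenin acts). No matches of different motifs overlapped in these promoters. The 250 bases before the start are printed 5′ to 3′ with matches in capitals, and a match is a description of letters, not of binding. *Mvk* (chr5:114444019-114444268 (plus strand)), *Mvd* (chr8:122443423-122443672 (minus strand)) and *Nsdhl* (chrX:72918271-72918520 (plus strand)) are shown for their large differences between the effect of Rspo2 without and with Wnt3a, *Hsd17b7* (chr1:169969206-169969455 (minus strand)) because it was highest with the combination, *Hmgcs1* (chr13:119690101-119690350 (plus strand)) because it alone held the sterol regulatory element, and *Lpin1* (chr12:16610967-16611216 (minus strand)) for the largest fall.
Mvk: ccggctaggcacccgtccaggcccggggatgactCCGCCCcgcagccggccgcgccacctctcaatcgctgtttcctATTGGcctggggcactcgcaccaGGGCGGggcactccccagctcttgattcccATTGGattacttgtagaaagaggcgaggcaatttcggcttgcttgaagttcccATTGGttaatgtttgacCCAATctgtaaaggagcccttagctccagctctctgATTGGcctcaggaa
Mvd: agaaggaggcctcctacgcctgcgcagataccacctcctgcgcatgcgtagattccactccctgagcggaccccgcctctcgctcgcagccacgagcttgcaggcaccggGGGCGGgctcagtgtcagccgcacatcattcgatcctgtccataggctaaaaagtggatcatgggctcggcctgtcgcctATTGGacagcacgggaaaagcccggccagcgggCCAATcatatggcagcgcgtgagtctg
Nsdhl: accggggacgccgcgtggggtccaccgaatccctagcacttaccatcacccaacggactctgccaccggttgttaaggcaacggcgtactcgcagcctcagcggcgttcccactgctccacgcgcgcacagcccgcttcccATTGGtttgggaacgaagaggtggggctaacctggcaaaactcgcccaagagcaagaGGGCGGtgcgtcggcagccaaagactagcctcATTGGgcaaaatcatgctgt
Hsd17b7: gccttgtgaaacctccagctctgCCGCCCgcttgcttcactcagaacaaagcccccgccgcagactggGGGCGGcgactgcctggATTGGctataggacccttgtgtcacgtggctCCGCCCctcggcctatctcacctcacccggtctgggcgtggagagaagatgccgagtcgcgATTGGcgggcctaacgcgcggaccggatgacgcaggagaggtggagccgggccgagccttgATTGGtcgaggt
Hmgcs1: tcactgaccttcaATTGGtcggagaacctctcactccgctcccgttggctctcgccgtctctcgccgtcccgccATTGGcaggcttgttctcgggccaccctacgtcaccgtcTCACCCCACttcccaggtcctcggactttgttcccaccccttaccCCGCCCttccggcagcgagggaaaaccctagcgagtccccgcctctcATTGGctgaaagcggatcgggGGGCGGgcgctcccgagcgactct
Lpin1: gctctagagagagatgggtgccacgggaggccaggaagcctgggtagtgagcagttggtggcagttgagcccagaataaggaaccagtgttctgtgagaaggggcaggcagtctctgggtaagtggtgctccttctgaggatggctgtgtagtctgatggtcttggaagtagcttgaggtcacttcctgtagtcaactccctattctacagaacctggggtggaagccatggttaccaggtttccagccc

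CCAAT was present in a promoter of 14 of the 15 sterol-branch genes with an entry and of 4 of the 8 in the fatty acid branch, against 41.1% of all 27025 genes of the table. GGGCGG was present for 14 of 15 and 4 of 8, against 38.2% of all genes. The exact sterol regulatory element was in the promoter of *Hmgcs1* only among the 28 members, and in 1.44% of all genes. TCAAAG was found for 4 of the 28 members, *Pmvk*, *Insig2*, *Elovl6* and *Me1*, against 18.2% of all genes. The window of *Lpin1*, which lies at a start inside the annotated gene, held none of the 4 motifs.

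With Rspo2 alone, genes of the sterol branch rose and no gene of the fatty acid branch or of SREBP control passed the test. All 8 members that rose (22.9% of 35, against 10.9% of detected probes that rose) were sterol enzymes, and none of the 35 fell at the adjusted threshold (5.93% of detected probes did). With an unadjusted limma p below 0.05, 15 members were higher and 1 was lower, and the methods' t-test called 0 after Benjamini-Hochberg adjustment and 13, all higher, without it. Of all detected probes that t-test called 0 higher and 2 lower after adjustment and 3519 and 1976 without it. The median change of the 19 sterol-branch genes was 0.25, that of the 11 fatty acid genes 0.079 and that of all detected probes 0.013. All 19 sterol-branch genes had a change above 0, but 15 of 19 did after quantile normalization, after normexp background correction, where the branch median was -0.068 relative to that of all detected probes, and after scaling to the 75th percentile of probes that every array detected.

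With Wnt3a alone, 8 members rose (18.3% of detected probes did) and 3 fell (13.2% of detected probes did). The 8 were again sterol enzymes, and those that fell were *Tm7sf2* of the sterol branch and *Elovl6* and *Lpin1* of the fatty acid branch. The median change was 0.23 in the sterol branch, 0.016 in the fatty acid branch and -0.00028 over all detected probes. This split rested on the scaling: quantile normalization gave 1 that rose and 7 that fell, scaling to the percentile of probes that every array detected gave 2 and 5, and median scaling gave 18 and 0. Calls over the 22750 detected probes moved too, from 4153 that rose and 3008 that fell. They were 3212 and 2240, 2662 and 4856, and 9628 and 937 in the same order.

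With Rspo2 plus Wnt3a more members fell than rose. Of the 35 genes 12 fell (34.3%, against 17.3% of detected probes) and 4 rose (11.4%, against 21.9%). The 12 were *Mvd*, *Idi1*, *Sqle*, *Lss*, *Tm7sf2*, *Dhcr7* and *Stard4* of the sterol branch, *Srebf1* and *Srebf2*, and *Fasn*, *Elovl6* and *Lpin1* of the fatty acid branch; the 4 were *Fdps*, *Fdft1*, *Hsd17b7* and *Ebp*. The sterol branch thus divided, with a median change of 0.028, while the medians of the fatty acid branch and the SREBP control genes were -0.17 and -0.38, beside 0.043 over all detected probes. Only *Lpin1* changed by at least 2-fold, as did 5.08% of detected probes. Quantile normalization gave 1 that rose and 16 that fell, scaling to the percentile of probes that every array detected 2 and 14, and median scaling 6 and 3. The detected probes that rose and fell, 4985 and 3931 in the main fit, became 4462 and 3843, 3389 and 5368, and 7977 and 1961.

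**Figure D1:**
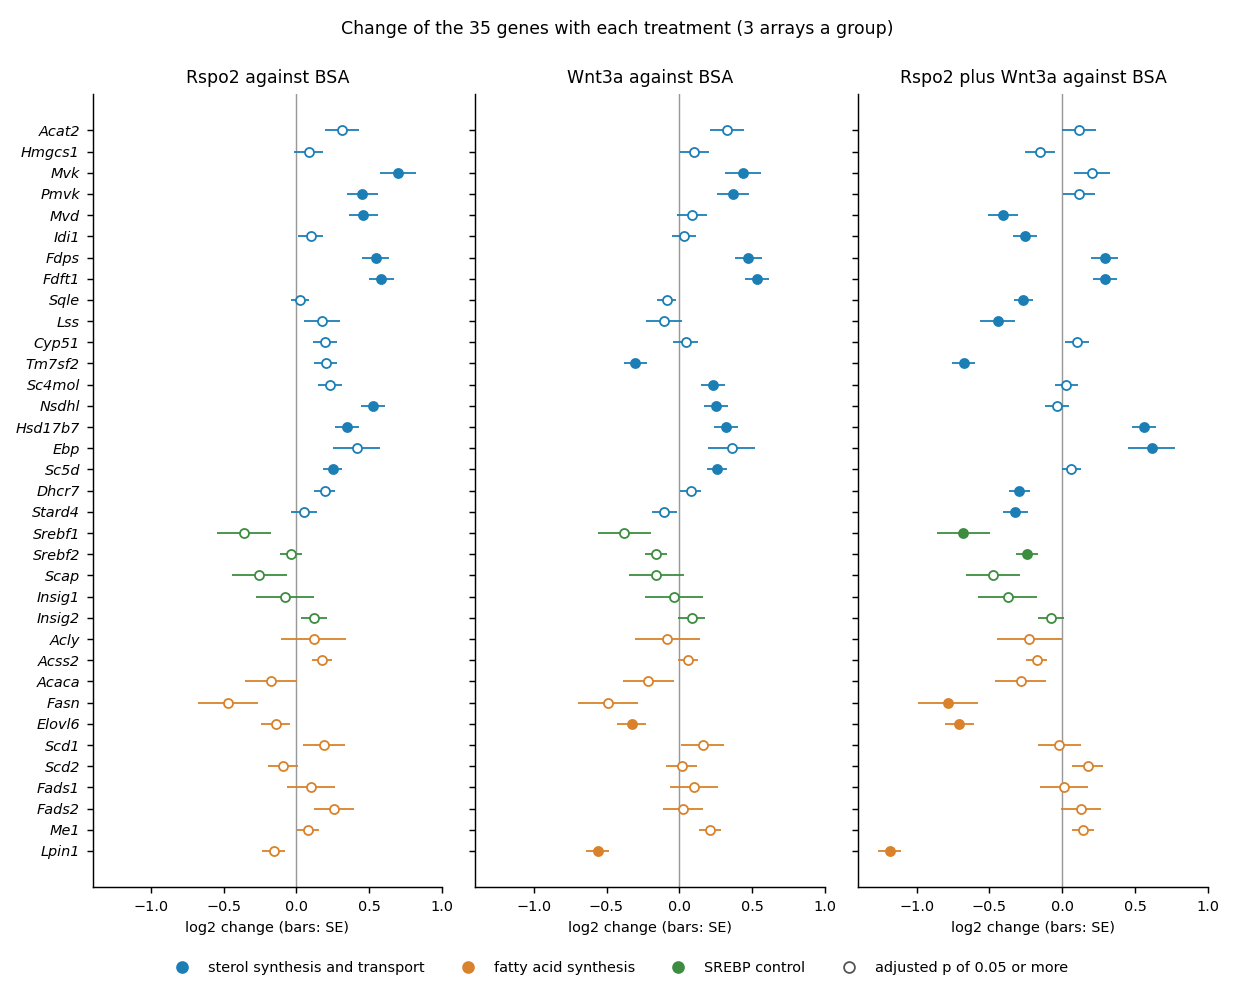
Log2 change (x axis) of each of the 35 genes (y axis) with Rspo2, Wnt3a or both against BSA; points are differences of means of 3 arrays, bars are SE, and filled points had an adjusted p under 0.05. The sterol genes (blue) lie right of 0 with Rspo2, where 8 are filled, and on both sides with both proteins, where *Lpin1* lies farthest left at -1.19.

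The enzymes that work on mevalonate rose together with Rspo2. *Mvk* encodes mevalonate kinase, and its log2 signal was 2.50, 2.74 and 2.62 with BSA, 3.24, 3.27 and 3.45 with Rspo2, 2.90, 3.04 and 3.22 with Wnt3a and 3.03, 2.85 and 2.60 with the combination. The Rspo2 arrays lay above all other arrays, and those of the combination overlapped both BSA and Wnt3a. The change was 0.70 ± 0.12 (adjusted p = 0.012) with Rspo2, 0.44 ± 0.12 (adjusted p = 0.023) with Wnt3a and 0.20 ± 0.12 (adjusted p = 0.22) with the combination. The second *Mvk* probe changed by 0.42 (adjusted p = 0.046) with Rspo2 and by 0.093 (adjusted p = 0.61) with Wnt3a. *Pmvk*, which encodes the kinase of the next step, stood at 2.03, 2.24 and 2.18 with BSA, 2.51, 2.54 and 2.77 with Rspo2, 2.42, 2.58 and 2.57 with Wnt3a and 2.44, 2.24 and 2.12 with the combination. It was higher than BSA on every array of either single protein, by 0.45 ± 0.11 (adjusted p = 0.025) with Rspo2 and 0.37 ± 0.11 (adjusted p = 0.026) with Wnt3a, and with both it overlapped BSA. *Mvd*, mevalonate diphosphate decarboxylase, completes the conversion and had a log2 signal of 2.11, 2.39 and 2.32 with BSA, 2.61, 2.71 and 2.88 with Rspo2, 2.34, 2.37 and 2.37 with Wnt3a and 2.0, 1.86 and 1.73 with the combination. Its Rspo2 arrays were above and its combination arrays below those of every other group, with changes from BSA of 0.46 ± 0.10 (adjusted p = 0.021) and -0.41 ± 0.10 (adjusted p = 0.0095), and Wnt3a alone gave 0.085 ± 0.10 (adjusted p = 0.56).

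*Fdps*, farnesyl diphosphate synthase, makes the branch point of sterols and other isoprenoids, and its log2 signal was 5.02, 5.09 and 5.08 with BSA, 5.52, 5.49 and 5.81 with Rspo2, 5.48, 5.56 and 5.57 with Wnt3a and 5.45, 5.34 and 5.27 with the combination. *Fdft1*, squalene synthase, which commits farnesyl diphosphate to sterols, had 3.07, 3.22 and 3.27 with BSA, 3.70, 3.77 and 3.83 with Rspo2, 3.70, 3.83 and 3.63 with Wnt3a and 3.53, 3.51 and 3.40 with the combination. For both genes the BSA arrays were the lowest of the 4 groups and the combination lay between BSA and either protein alone, without overlap. *Fdps* changed by 0.55 ± 0.093 (adjusted p = 0.011), 0.47 ± 0.093 (adjusted p = 0.0043) and 0.29 ± 0.093 (adjusted p = 0.029) with Rspo2, Wnt3a and both, and *Fdft1* by 0.58 ± 0.084 (adjusted p = 0.0058), 0.53 ± 0.084 (adjusted p = 0.0017) and 0.29 ± 0.084 (adjusted p = 0.019). Their second probes went the other way: that of *Fdps* changed by -1.56 (adjusted p = 6.1e-05) with the combination, and that of *Fdft1* by -0.35 (adjusted p = 0.39). The calls of these genes therefore belong to their brightest probe only. *Acat2* and *Hmgcs1*, which form the first intermediates, passed in no comparison on their brightest probes, with changes from -0.15 to 0.33 against BSA; another probe of *Hmgcs1* changed by -0.62 (adjusted p = 0.00038) with both proteins, by -0.41 (adjusted p = 0.023) against Wnt3a and by -0.44 (adjusted p = 0.050) in the interaction.

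Among the enzymes that turn squalene into cholesterol, some rose with either protein, some fell with both and a pair rose with both. *Nsdhl* encodes a dehydrogenase of C4 demethylation, and its log2 signal was 3.06, 3.15 and 3.17 with BSA, 3.57, 3.62 and 3.76 with Rspo2, 3.36, 3.41 and 3.37 with Wnt3a and 3.15, 3.17 and 2.94 with the combination. The Rspo2 arrays were the highest and the combination overlapped BSA, with changes of 0.53 ± 0.083 (adjusted p = 0.0085), 0.25 ± 0.083 (adjusted p = 0.04) and -0.038 ± 0.083 (adjusted p = 0.75) in the order Rspo2, Wnt3a, both. *Hsd17b7*, a reductase of the same demethylation, had 1.92, 1.74 and 1.78 with BSA, 2.22, 2.06 and 2.20 with Rspo2, 2.06, 2.23 and 2.11 with Wnt3a and 2.38, 2.44 and 2.29 with the combination. It was the sterol enzyme whose combination arrays lay above all others, at 0.56 ± 0.083 (adjusted p = 0.00054) from BSA, against 0.35 and 0.32 with Rspo2 and Wnt3a alone. The second *Hsd17b7* probe changed by 0.57 (adjusted p = 0.00030) with both. With the single proteins that probe did not pass, at 0.048 (adjusted p = 0.70) with Rspo2 and 0.086 (adjusted p = 0.43) with Wnt3a. *Ebp*, the sterol isomerase, also had its highest mean with the combination and stood at 3.97, 4.06 and 3.97 with BSA, 4.32, 4.53 and 4.40 with Rspo2, 3.91, 4.69 and 4.49 with Wnt3a and 4.69, 4.60 and 4.56 with the combination. Its change with both was 0.61 ± 0.16 (adjusted p = 0.012); Wnt3a replicate 1 lay far below the other Wnt3a arrays and below those of BSA. *Sc5d* and *Sc4mol*, a desaturase and a methyl oxidase, had smaller changes: *Sc5d* rose by 0.25 with Rspo2 and by 0.26 with Wnt3a (adjusted p = 0.035 and 0.015), and *Sc4mol* rose by 0.23 with Wnt3a (adjusted p = 0.049).

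*Tm7sf2*, the sterol C14 reductase, showed the largest fall of the sterol branch, with a log2 signal of -0.22, -0.12 and -0.29 with BSA, -0.011, -0.0012 and -0.021 with Rspo2, -0.55, -0.49 and -0.50 with Wnt3a and -0.75, -0.99 and -0.92 with the combination. None of its 4 groups overlapped, the order being Rspo2, BSA, Wnt3a and the combination, and it changed by 0.20 ± 0.08 (adjusted p = 0.1), -0.30 ± 0.08 (adjusted p = 0.016) and -0.68 ± 0.08 (adjusted p = 0.00013) with Rspo2, Wnt3a and both. *Dhcr7* encodes the reductase of the last step and had 3.29, 3.27 and 3.24 with BSA, 3.44, 3.49 and 3.46 with Rspo2, 3.30, 3.47 and 3.27 with Wnt3a and 2.92, 3.01 and 2.98 with the combination. Its combination arrays lay below all others, -0.30 ± 0.072 (adjusted p = 0.0082) from BSA, and its changes with Rspo2 (0.20) and Wnt3a (0.078) did not pass. The second *Dhcr7* probe changed by -0.14 (adjusted p = 0.31) with both proteins. *Lss*, lanosterol synthase, stood at 0.86, 0.98 and 1.22 with BSA, 1.18, 1.23 and 1.17 with Rspo2, 1.15, 0.86 and 0.73 with Wnt3a and 0.48, 0.53 and 0.72 with the combination. It too was lowest with the combination, by -0.44 ± 0.12 (adjusted p = 0.015), and its BSA arrays overlapped with those of either protein alone. *Sqle*, squalene epoxidase, *Idi1*, the isopentenyl diphosphate isomerase, and *Stard4*, a carrier of cholesterol between membranes, fell with both proteins by 0.27, 0.26 and 0.32 (adjusted p = 0.0074, 0.032 and 0.016). The brightest *Idi1* probe is placed on chromosome 2 in the files, whereas the gene lies on chromosome 13 in GRCm38.p6, so it is uncertain. The second *Idi1* probe changed by -0.023 (adjusted p = 0.89) with both proteins. The other probes of *Stard4* changed by 0.17 and 0.15 with both proteins and rose by 0.41 and 0.41 with Rspo2 (adjusted p = 0.022 and 0.020). *Cyp51*, the lanosterol demethylase, passed in no comparison.

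**Figure D2:**
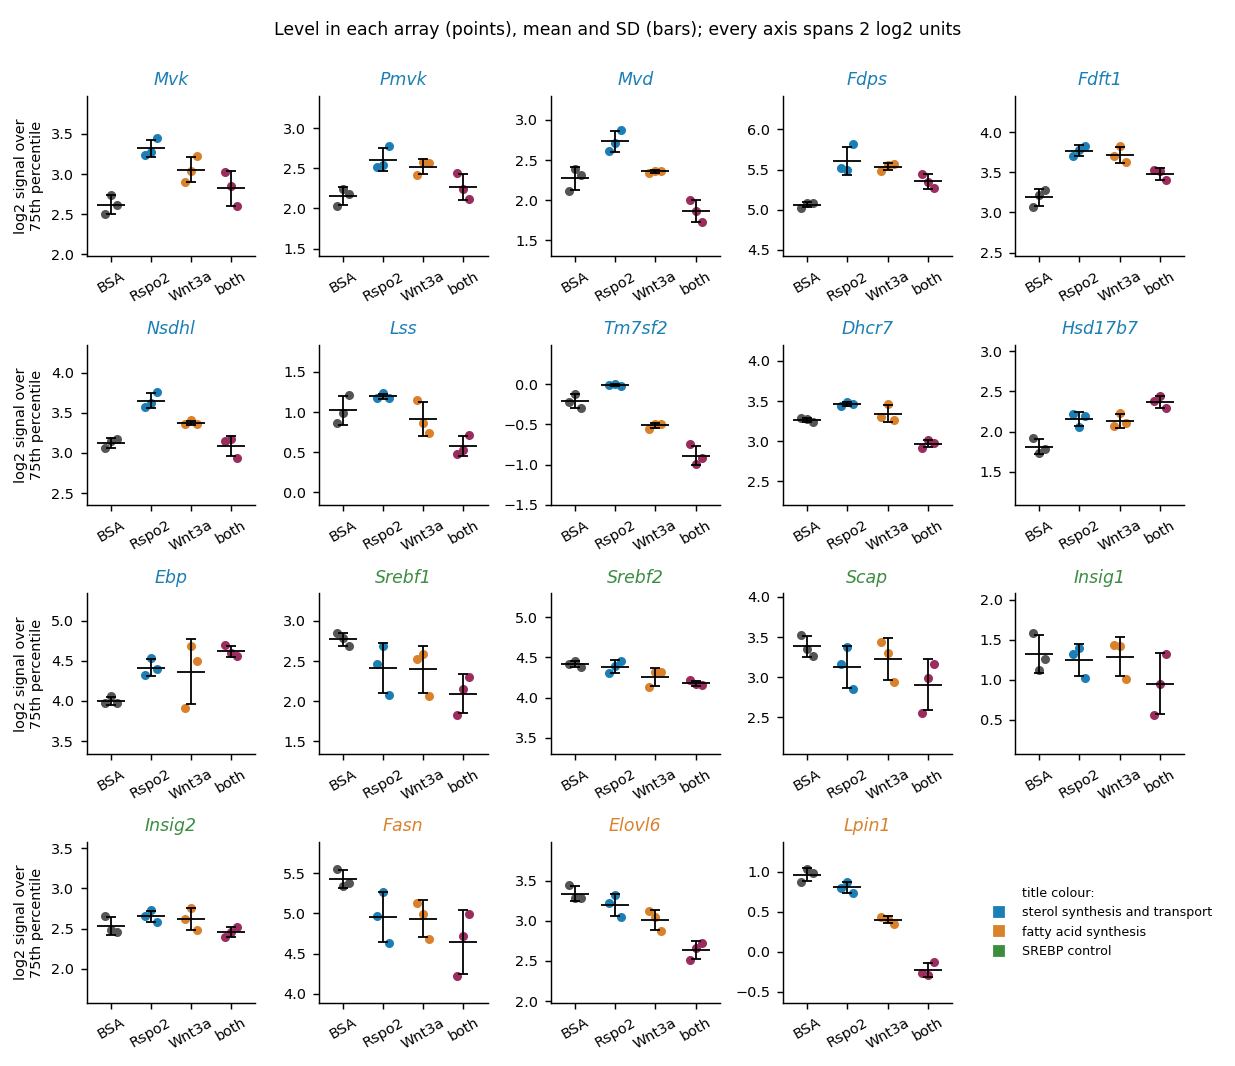
Log2 signal over the 75th percentile (y axis) in each of the 3 arrays of BSA, Rspo2, Wnt3a and both (x axis), with mean and SD, for 19 genes; every y axis spans 2 log2 units, and levels of different genes are not comparable. *Mvk*, *Mvd* and *Nsdhl* peak with Rspo2, *Hsd17b7* is highest with both, and *Lpin1* falls from 0.87 or more with BSA to -0.12 or less with both.

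The effect of Rspo2 was then compared without and with Wnt3a. Against Wnt3a alone, the combination lowered 4 members on their brightest probes (11.4%, against 2.49% of detected probes) and raised none (1.78% of detected probes rose): *Lpin1* by -0.62 ± 0.077 (adjusted p = 0.001), *Mvd* by -0.49 ± 0.10 (adjusted p = 0.021), *Tm7sf2* by -0.37 ± 0.08 (adjusted p = 0.025) and *Dhcr7* by -0.37 ± 0.072 (adjusted p = 0.014). The second probe of *Dhcr7* gave -0.17 (adjusted p = 0.42). On other probes *Hsd17b7* changed by 0.49 (adjusted p = 0.0050), and *Hmgcs1*, *Lss* and *Nsdhl* by -0.41, -0.57 and -0.585 (adjusted p = 0.023, 0.020 and 0.017). With an unadjusted limma p below 0.05, 16 members were lower and 1 was higher. The methods' t-test called 12 and 1 without adjustment and 0 with it. Of all detected probes it called 1303 lower and 1153 higher without adjustment and 6 and 10 with it. The interaction is this change less that of Rspo2 without Wnt3a, and it was negative and past the threshold in 12 of 35 genes (34.3%, against 5.31% of detected probes) and positive in none (3.58% of detected probes). These calls, like those of all probes, rested on the processing: 0 members passed with normexp background correction, 0 with slide as a fixed term and 3 members with no filter on dim probes. Of 22750 detected probes 1 was positive and 2 were negative with normexp correction, and 87 and 82 with slide as a fixed term. With no filter 125 and 174 of 41173 were. With an unadjusted limma p below 0.05 it was negative in 17 and positive in 0; no t-test was run on it. In these 12 genes the combination was lower than the sum of the separate changes. No member reached a 2-fold change in the interaction, against Wnt3a, or with either protein alone (1.93%, 0.747%, 0.721% and 2.52% of detected probes did); in the interaction 1 did without BSA replicate 2, Rspo2 replicate 1 or Wnt3a replicate 1, 2 without replicate 1 of the combination, and 5 with median scaling.

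The 12 comprised 10 sterol enzymes, *Acss2* and *Lpin1*. The interaction was -0.96 ± 0.14 (adjusted p = 0.0051) for *Mvd*, -0.93 ± 0.18 (adjusted p = 0.015) for *Mvk*, -0.82 ± 0.12 (adjusted p = 0.0041) for *Fdft1* and -0.82 ± 0.12 (adjusted p = 0.004) for *Nsdhl*. All of the 3 brightest *Nsdhl* probes gave a negative interaction, of -0.82, -0.52 and -0.77 (adjusted p = 0.0040, 0.024 and 0.0040), and the fourth gave -0.46 (adjusted p = 0.096). Against BSA the *Nsdhl* probes disagreed: the fourth fell by 0.57 (adjusted p = 0.0051) with Wnt3a, where the brightest rose, and with both proteins the second and the fourth changed by -0.23 and -1.15 (adjusted p = 0.040 and 4.3e-05). For *Fdps*, *Pmvk*, *Tm7sf2* and *Dhcr7* the interaction was -0.73, -0.71, -0.57 and -0.57, with adjusted p-values from 0.012 to 0.024. The second probes of *Mvk* and *Dhcr7* gave interactions of -0.59 and -0.40 (adjusted p = 0.063 and 0.11), and that of *Pmvk* gave -0.97 (adjusted p = 0.012). *Mvd*, *Mvk*, *Fdft1* and *Nsdhl* had the positive change with Rspo2 alone described above, so the sign of the Rspo2 difference was the opposite in the presence of Wnt3a, at -0.49, -0.23, -0.24 and -0.29; of these only that of *Mvd* passed. All 19 sterol-branch genes had an interaction below 0, with a median of -0.51 beside -0.0031 over all detected probes; 15 of 19 were below 0 after quantile normalization and 16 of 19 after normexp correction. In the fatty acid branch 8 of 11 were below 0, with a median of -0.19, and 2 passed. Within the sterol branch, *Hsd17b7* and *Ebp* had the interactions nearest to 0 beside *Cyp51*, at -0.11 and -0.16, and the second probe of *Hsd17b7* gave 0.44 (adjusted p = 0.036).

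**Figure D3:**
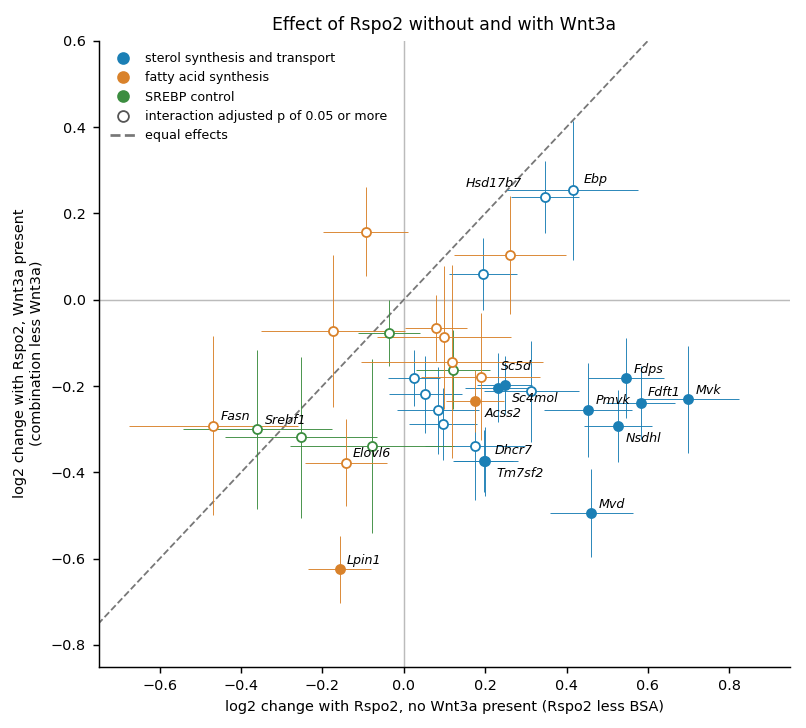
Log2 change with Rspo2 in the absence (x axis) and presence (y axis) of Wnt3a for the 35 genes; the 2 axes use different arrays, bars are SE, filled points had an interaction with an adjusted p under 0.05 and the dashed line marks equal effects. The 19 sterol-branch genes (blue) lie below the line, *Mvd* farthest at 0.46 against -0.49.

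Of the 5 genes of SREBP control none passed with Rspo2 or Wnt3a alone on its brightest probe (with an unadjusted limma p below 0.05, 0 in either direction in both), where 10.9% and 18.3% of detected probes rose and 5.93% and 13.2% fell, and 2 fell with both proteins (40%, against 17.3%). *Srebf1*, the gene of SREBP-1, had a log2 signal of 2.85, 2.79 and 2.69 with BSA, 2.46, 2.69 and 2.08 with Rspo2, 2.53, 2.59 and 2.06 with Wnt3a and 1.83, 2.15 and 2.30 with the combination. The combination lay below BSA without overlap, by -0.68 ± 0.18 (adjusted p = 0.014), and the changes with Rspo2 and Wnt3a were -0.36 and -0.38 (adjusted p = 0.19 and 0.14). *Srebf2*, the gene of SREBP-2, stood at 4.42, 4.46 and 4.38 with BSA, 4.31, 4.39 and 4.46 with Rspo2, 4.13, 4.32 and 4.32 with Wnt3a and 4.22, 4.17 and 4.16 with the combination. Its combination arrays were below those of BSA by a small margin, -0.24 ± 0.076 (adjusted p = 0.029), but its second probe rose in all 3 treatments, by 0.27 (adjusted p = 0.033) with Rspo2, 0.40 (adjusted p = 0.0030) with Wnt3a and 0.33 (adjusted p = 0.0050) with the combination. *Scap* had 3.53, 3.35 and 3.27 with BSA, 3.17, 3.37 and 2.85 with Rspo2, 3.44, 3.30 and 2.93 with Wnt3a and 2.56, 2.99 and 3.17 with the combination. Its groups overlapped except for the combination and BSA, which differed by -0.48 ± 0.19 (adjusted p = 0.065). *Insig1*, itself known as an SREBP target, stood at 1.58, 1.12 and 1.26 with BSA, 1.32, 1.40 and 1.02 with Rspo2, 1.43, 1.43 and 1.01 with Wnt3a and 0.57, 0.95 and 1.33 with the combination, and *Insig2* at 2.66, 2.48 and 2.46 with BSA, 2.65, 2.73 and 2.59 with Rspo2, 2.62, 2.76 and 2.48 with Wnt3a and 2.39, 2.45 and 2.52 with the combination. On these probes neither passed in any comparison and the treated groups overlapped with BSA, whereas the second probe of *Insig2* rose by 0.29 (adjusted p = 0.038) with Rspo2; with both proteins they changed by -0.38 and -0.078.

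In the fatty acid branch 0 of 11 genes passed with Rspo2, 2 fell with Wnt3a (18.2%, against 13.2% of detected probes) and 3 fell with both (27.3%, against 17.3%), shares near those of all probes. *Lpin1* encodes lipin 1, a phosphatidate phosphatase of triacylglycerol synthesis that also serves as a transcriptional coactivator, and lies at chr12:16535669-16653903 (GRCm38.p6). Its log2 signal was 0.87, 1.03 and 0.98 with BSA, 0.80, 0.87 and 0.74 with Rspo2, 0.44, 0.41 and 0.35 with Wnt3a and -0.26, -0.29 and -0.12 with the combination. BSA and Rspo2 overlapped, Wnt3a lay below both and the combination lay lowest, at changes of -0.56 ± 0.077 (adjusted p = 0.00094) and -1.19 ± 0.077 (adjusted p = 1.9e-06), the latter a 2.28-fold fall. All 4 *Lpin1* probes fell with the combination, with changes between -0.81 and -1.19. *Elovl6*, the elongase of palmitate, had 3.44, 3.29 and 3.29 with BSA, 3.22, 3.32 and 3.05 with Rspo2, 3.12, 3.05 and 2.87 with Wnt3a and 2.51, 2.66 and 2.73 with the combination. It fell with Wnt3a (-0.33 ± 0.10 (adjusted p = 0.03)) and with the combination (-0.71 ± 0.10 (adjusted p = 0.00043)), again with the combination lowest and no overlap with BSA. *Fasn*, fatty acid synthase, stood at 5.56, 5.34 and 5.38 with BSA, 4.97, 5.26 and 4.64 with Rspo2, 5.13, 5.00 and 4.68 with Wnt3a and 4.22, 4.72 and 5.00 with the combination. Every treated array was below every BSA array, but only the change with the combination, -0.78 ± 0.21 (adjusted p = 0.013), passed; with Rspo2 and Wnt3a it was -0.47 and -0.49, and the second probe gave -0.28 (adjusted p = 0.29) with the combination.

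The other 8 genes of the branch did not pass in any comparison with BSA. They were *Acly* and *Acss2*, which supply acetyl-CoA, *Acaca*, which makes malonyl-CoA, the desaturases *Scd1*, *Scd2*, *Fads1* and *Fads2*, and *Me1*, which supplies NADPH. Their changes ran from -0.17 (*Acaca*) to 0.26 (*Fads2*) with Rspo2, from -0.21 (*Acaca*) to 0.21 (*Me1*) with Wnt3a and from -0.29 (*Acaca*) to 0.17 (*Scd2*) with both. *Fasn*, *Elovl6*, *Srebf1*, *Scap* and *Insig1* also varied together within groups: each was lowest on Rspo2 replicate 3 among the Rspo2 arrays, on Wnt3a replicate 3 among the Wnt3a arrays and on replicate 1 of the combination. Those arrays had the highest share of probes well above background of their groups, at 58.8%, 55.2% and 61.7%. On the BSA arrays, replicate 1 had both the highest such share (64.1%) and the highest signal of these 5 genes; the part of this in the changes was not tested.

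Set side by side by array, the branches differed in pattern. The median difference of the sterol-branch genes from their BSA means was between 0.20 and 0.25 on the Rspo2 arrays, between 0.13 and 0.24 on the Wnt3a arrays and between -0.038 and 0.070 with the combination, beside -0.029 to 0.024 on the BSA arrays themselves. For the fatty acid genes it was -0.028 to 0.17, -0.19 to 0.12 and -0.23 to -0.0091 in the same order, so that each single-protein group fell on both sides of 0. For the genes of SREBP control it was -0.31 to -0.011, -0.32 to 0.053 and -0.76 to -0.22. These are descriptions of the chosen genes, with no test of one branch against another.

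**Figure D4:**
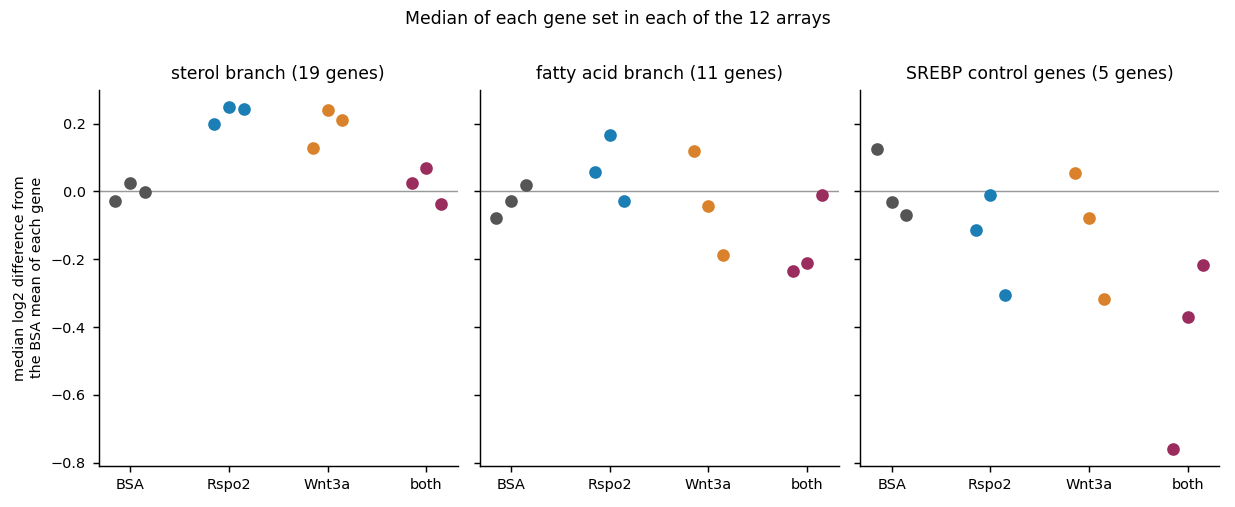
Median over the genes of a set of the log2 difference from each gene's BSA mean (y axis) on each array, by group (x axis), for the 19 sterol-branch, 11 fatty acid and 5 SREBP control genes. The sterol medians on the Rspo2 arrays (0.20 to 0.25) overlap those on the Wnt3a arrays (0.13 to 0.24) and are near 0 with both proteins, and the lowest SREBP control median is -0.76.

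Arrays of 1 slide gave values without a difference of slide, for 2 comparisons. On slide 1, Rspo2 replicate 1 lay above all 3 BSA arrays for 14 of the 19 sterol-branch genes (73.7%, against 37.2% of detected probes) and below all 3 for none (30.5% of detected probes). On slide 3, all 3 arrays of the combination lay below Wnt3a replicate 3 for 17 of the 19 (89.5%, against 27.6% of detected probes) and above it for 2, *Hsd17b7* and *Ebp* (28.9% of detected probes). For *Mvd*, *Tm7sf2*, *Dhcr7* and *Lpin1* the combination was lower there by 0.51, 0.39, 0.30 and 0.58 on average; these 4 were called in a fit that held the same arrays, so the values are a description. In the fatty acid branch the same comparisons gave 3 above and 4 below of 11, and 2 above and 4 below of 11. Each rests on a single array of 1 group. With slide as a fixed term in the fit, *Lpin1* with the combination was the only member past the threshold in any comparison. That fit called few of the 22750 detected probes: 31 rose and 67 fell with Rspo2, 43 and 138 with Wnt3a, and 184 and 388 with both.

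The counts also rested on single arrays, as did those over all detected probes. The 8 that rose with Rspo2 became 5, 5 and 4 without BSA replicate 1, 2 or 3 and 3 without Rspo2 replicate 3. Of all detected probes 2476 rose with Rspo2, which became 295, 617, 340 and 165 in the same order. The 11 with Wnt3a became 7, 5 and 6 without BSA replicate 1, 2 or 3 and 4 and 7 without Wnt3a replicate 2 or 3. In these settings the detected probes that rose went from 4153 to between 2830 and 3635. Those that fell went from 3008 to between 2053 and 3051. The 16 with the combination became 10 without its replicate 1, where all probes went from 4985 to 3489 that rose and from 3931 to 3322 that fell. The 4 against Wnt3a became 2 and 1 without Wnt3a replicate 1 or 2 and 1 and 2 without replicate 2 or 3 of the combination. The 566 detected probes that fell against Wnt3a became 366, 280, 273 and 350 in the same order. The 12 of the interaction became 7 without BSA replicate 3, 7 without Wnt3a replicate 2 and 6 without replicate 2 of the combination. There the 1209 detected probes with a negative interaction became 408, 388 and 354.

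Neighbouring genes of lipid metabolism were described from lists of 69 genes, of which 61 were detected. With Rspo2 10 rose (16.4%, against 10.9% of detected probes) and 3 fell (4.92%, against 5.93%), the latter being *Abca1*, *Gpam* and *Apoe* (-0.57, -0.47 and -0.36), which were named after their values were seen. With Wnt3a 9 rose (14.8%, against 18.3%) and 7 fell (11.5%, against 13.2%). With both 8 rose (13.1%, against 21.9%) and 22 fell (36.1%, against 17.3%), of which 7 were among the 14 detected genes of sterol uptake, storage and efflux and 8 among the 18 of other fatty acid and lipid synthesis. Genes changed by at least 2-fold were *Abca1*, *Abcg1*, *Elovl7* and *Ppargc1a*. *Abca1*, the transporter that moves cholesterol out of cells, had a log2 signal of -2.58, -2.99 and -3.00 with BSA, -3.49, -3.40 and -3.36 with Rspo2, -3.82, -4.26 and -4.33 with Wnt3a and -4.81, -5.04 and -4.80 with the combination. It fell with each treatment, by -0.57 ± 0.15 (adjusted p = 0.034), -1.28 ± 0.15 (adjusted p = 0.00043) and -2.03 ± 0.15 (adjusted p = 5.4e-06). *Abcg1*, a transporter of the same process, stood at -2.47, -3.21 and -3.03 with BSA, -3.00, -3.15 and -3.19 with Rspo2, -4.25, -3.78 and -4.04 with Wnt3a and -5.47, -5.28 and -5.26 with the combination; with both proteins it fell by -2.44 ± 0.18 (adjusted p = 4.5e-06), and its interaction was -1.11 ± 0.25 (adjusted p = 0.027). *Elovl7*, an elongase, changed by -1.30 ± 0.11 (adjusted p = 1.4e-05) and *Ppargc1a*, a coactivator of oxidative metabolism, by -1.69 ± 0.23 (adjusted p = 0.00035) with both proteins, and for *Elovl7* the interaction was -1.0 ± 0.16 (adjusted p = 0.0062). With both proteins each of these changed by more than any of the 35 genes, and each was measured below the 75th percentile of the array. Their mean log2 signal was then -4.88 for *Abca1*, -5.34 for *Abcg1*, -3.87 for *Elovl7* and -5.33 for *Ppargc1a*. In that group the cell type markers not counted as detected ranged from -7.73 to -5.41. The size of a change that ends so near background is uncertain.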

How the data were processed

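RNA of 12 C57MG monolayers was labeled with 1 dye and hybridized to arrays of 60-base probes. The authors deposited, per the file headers, background-subtracted intensity values made with Agilent Feature Extraction 9.5.3.1, unscaled between arrays, with the mean and local background intensity and quality flags of each spot. The authors also deposited a table of ratio values, each signal over the 75th percentile of its array with a lowest value of 0.01, with medians of 0.05 to 0.08 per array, which served as an alternative.

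Of 520548 spot values 1327 marked as uneven or outlying were left out, spots of a probe were averaged, and each mean was expressed as log2 over its array's 75th percentile. A probe counted as detected when the scanner software flagged it well above background on the 3 arrays of any group (repeated probes, on at least 0.5 of their spots). No probe was saturated on at least 0.5 of its spots. Replicate arrays correlated at 0.989 to 0.996 and none were duplicates. Signal over background and 3 arrays a group limit the precision. That the monolayers are separate cultures comes from the study's methods.

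Group means were fitted with limma 3.58.1 (R 4.3.3, data.table, version 1.17.8; lmFit, eBayes; prior with 2.74 degrees of freedom), with p-values adjusted over 22750 detected probes by Benjamini-Hochberg, a threshold of 0.05 and a 2-fold limit. The interaction is the change with both proteins less the changes with each. The fit was tested on simulated data. The members and lists were chosen with earlier results of these data known. Values of every array are given for up to 8 members of each branch with the largest change with both proteins among those past the threshold against BSA, for the SREBP control genes, and for up to 8 members past it in the interaction or against Wnt3a; neighbours are named at a 2-fold change. Names and promoters come from RefSeq (GRCm38.p6). The 31 alternatives covered background correction, scaling, filters, tests, slide, replicate number, probe choice and each array left out. Plots were made with matplotlib 3.10.9 (python 3.11.15, numpy 2.4.6, pandas 2.3.3).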

Additional observations from a re-analysis of the deposited data

Results flagged for a closer look

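In 12 genes the change with Rspo2 differed between cells with and without Wnt3a, by the interaction of the limma fit. The difference was -0.96 for Mvd, -0.93 for Mvk, -0.82 for Fdft1, -0.82 for Nsdhl, -0.73 for Fdps, -0.71 for Pmvk, -0.57 for Tm7sf2, -0.57 for Dhcr7, -0.47 for Lpin1, -0.45 for Sc5d, -0.43 for Sc4mol and -0.41 for Acss2 on the log2 scale, with adjusted p-values from 0.0040 to 0.042. Without Wnt3a the change with Rspo2 was above 0 in all of these but Lpin1, and with Wnt3a it was below 0 in all 12. Groups of 3 arrays were too small to test for outlying arrays.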

How the results depend on the processing

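The authors' processed values, all spots kept, the stricter filter, the other detection flag, the trended prior and the mean of detected probes left every count of members, summed over both directions, within 1.5 times, as did quantile normalization for counts past the adjusted threshold. By direction, the mean of detected probes took those that rose with Wnt3a from 8 to 5 and with both from 4 to 2, and quantile normalization took those that rose and fell with Wnt3a from 8 and 3 to 1 and 7 and those that rose with both from 4 to 1. In order of Rspo2, Wnt3a and both proteins against BSA, both against Wnt3a, and the interaction, the main counts past the threshold were 8, 11, 16, 4 and 12. Normexp correction, which moved the median change of all detected probes to 0.15 with Rspo2 and -0.16 in the interaction, gave 0, 0, 2, 0 and 0; relative to that median the sterol branch moved by -0.068 with Rspo2. Of all detected probes normexp correction called 0 higher and 4 lower with Rspo2, 44 and 65 with Wnt3a, and 450 and 601 with both. Slide as a fixed term gave 0, 0, 1, 0 and 0, and as a random block 6 with Wnt3a and 7 in the interaction. The arrays of slide 1 gave 0 with Rspo2, and those of slide 3 gave 0 against Wnt3a. With no filter on dim probes the counts were 1 with Rspo2, 3 with Wnt3a, 1 against Wnt3a and 3 in the interaction. Of the 41173 probes then tested 47 rose and 119 fell with Rspo2, and 2484 and 2104 with Wnt3a. Median scaling, which moved the median change of all detected probes to 0.18, 0.33, 0.26, -0.11 and -0.28, gave 18 with Wnt3a, 9 with both and 1 against Wnt3a; relative to that median the sterol branch moved by 0.24, 0.23 and -0.014 against BSA, and by 0.11, -0.088 and -0.27 after quantile normalization. Scaling to the percentile of probes that every array detected gave 7 with Wnt3a. The fit of 2 groups gave 5 with Rspo2 and 1 against Wnt3a. The methods' t-test gave 13 with Rspo2 and 13 against Wnt3a without adjustment, and 0, 3, 8 and 0 with it. The second brightest probe gave 5, 4, 7, 2 and 6, out of only the 20 members with a second detected probe. These counts therefore cannot be set directly against the main counts, which cover all members. Counts changed at least 2-fold were 0, 0, 1, 0 and 0; with both proteins against BSA they were 2 with quantile normalization or the second probe and 0 with median scaling, with Wnt3a 1 with the second probe, and in the interaction 5 with median scaling.

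Without single arrays the counts past the threshold ranged from 3 to 9, 4 to 11, 10 to 17, 1 to 5 and 6 to 13. Those changed at least 2-fold were 0 to 0, 0 to 0, 1 to 1, 0 to 0 and 0 to 2. The detected probes that rose with Rspo2, 2476 in the main fit, ranged from 165 to 2665. Those with a negative interaction, 1209 in the main fit, ranged from 354 to 1738. Replicate numbers did not pair the samples (same-number correlations from -0.41 to 0.27); with them as a block, the replicate block, the counts were 4 with Rspo2, 7 with Wnt3a, 2 against Wnt3a and 7 in the interaction, and 13 with both proteins.

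Directions turned mainly with the probe. With the second brightest probe the changes of Fdps, Fdft1, Sc5d and Srebf2 were -0.48, -0.60, -0.041 and 0.27 with Rspo2, -1.04, -0.53, -0.12 and 0.40 with Wnt3a and -1.56, -0.35, -0.39 and 0.33 with both; Stard4 gave 0.17 with both, and the interactions of Fdft1 and Hsd17b7 were 0.77 and 0.44. With the mean of detected probes Fdft1 changed by -0.0072 with Rspo2 and -0.028 with both, and Fdps by -0.28 with Wnt3a and -0.64 with both. Normexp correction gave -0.0011 for Sc5d with Rspo2, quantile normalization -0.071 for Sc4mol with Wnt3a and -0.015 for Fdps with both, and median scaling 0.025 for Tm7sf2 with Wnt3a. The cause was not tested.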

Other observations

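Genes of fatty acid oxidation, listed beside the synthesis genes, were called in both directions with the combination: of 11 detected genes 3 rose (27.3%, against 21.9% of all detected probes) and 3 fell (27.3%, against 17.3%), shares near those of all probes. Those that rose were Acadl, Pdk4 and Hadhb, by 0.28, 0.39 and 0.41, and those that fell were Ppargc1a, Cpt1a and Cpt2, by 1.69, 0.62 and 0.31 on the log2 scale. Acadl and Hadhb encode enzymes of mitochondrial beta-oxidation, Pdk4 a kinase that restrains pyruvate oxidation, and Cpt1a and Cpt2 the carnitine shuttle. These genes are named after their values were seen. Of 8 detected genes of other sterol and isoprenoid enzymes 3 rose with Rspo2 (37.5%, against 10.9% of all detected probes) and 4 with Wnt3a (50%, against 18.3%). With both proteins 3 of them rose (37.5%, against 21.9%) and 2 fell (25%, against 17.3%). Ggps1, Dhdds and Pdss1, whose enzymes make geranylgeranyl diphosphate, dolichol and the ubiquinone tail, rose with each treatment, by 0.39, 0.43 and 0.32 with Rspo2, by 0.39, 0.43 and 0.50 with Wnt3a and by 0.40, 0.42 and 0.38 with both. Ggps1, Dhdds and Pdss1 were also named after their values were seen.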
